A study of Mus musculus with 8 samples.

Results

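Half-methylated tiles are stretches of the mouse genome in which about as many reads were methylated as unmethylated, in B cells and in T cells alike. The autosomes were cut into tiles of 1 kb, and a tile could be judged if 10 or more of its CpGs had 5 or more reads in all 4 deposited files. Of the 647418 tiles that met this, 8207 had a pooled level of 40 to 60% in every file and were taken as half-methylated. The tiles were chosen by their measured levels in all 4 files, so their closeness to 50% is a description and not a finding. What follows mainly concerns what the choice did not use, which is where the tiles lie, how single CpGs behave inside them, what surrounds them and what sequence they hold.

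The method was bisulfite sequencing of the whole genome, which converts unmethylated cytosines, so that the level of a CpG is given by the reads in which it stayed a cytosine. It does not separate 5-methylcytosine from 5-hydroxymethylcytosine. The cells came from spleens of 6 to 8 week old C57BL/6J mice, an inbred strain, in 4 groups of 2 samples: resting CD43- B cells of females and of males, and naive CD4+ CD62L+ T cells of females and of males. Cells of several animals were pooled, and each group was represented by 1 file, so there is no spread within a group. Whether a file merges both samples of its group is not stated. The labels of both samples name the same file, but the number in its name matches the replicate number of only 1 of them. The values may therefore rest on 1 sample per group. The files held 278275973 to 339923001 autosomal CpG reads, or 14.6 to 17.7 per CpG. The promoters of the B cell genes Cd79a and Ms4a1 had levels of 10.5 to 17.02% in the B cell files and 79.3 to 93.6% in the T cell files, that of Cd22 27.7 to 32.8% and 64.4 to 66.2%, while Cd3d, Cd3e and Cd4, genes of the T cell receptor complex and its coreceptor, had 70.2 to 95.5% in B cells and 1.87 to 20% in T cells. The promoter of Lat, also listed as a T cell marker, did not separate them (23.2 to 29.5% in all files).

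Most CpGs of a mammalian genome are either almost fully methylated or, in CpG islands and active promoters, almost free of methylation. A level near 50% can arise when the 2 parental copies of a locus differ, as at imprinted genes, where the egg or the sperm leaves a methylated copy that is then kept in all tissues. It can also arise when cells differ from each other, or when methylated and unmethylated CpGs lie side by side in the same stretch. These data give levels of single CpGs, and the methylation of single molecules was not analysed here.

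**Figure D1:**
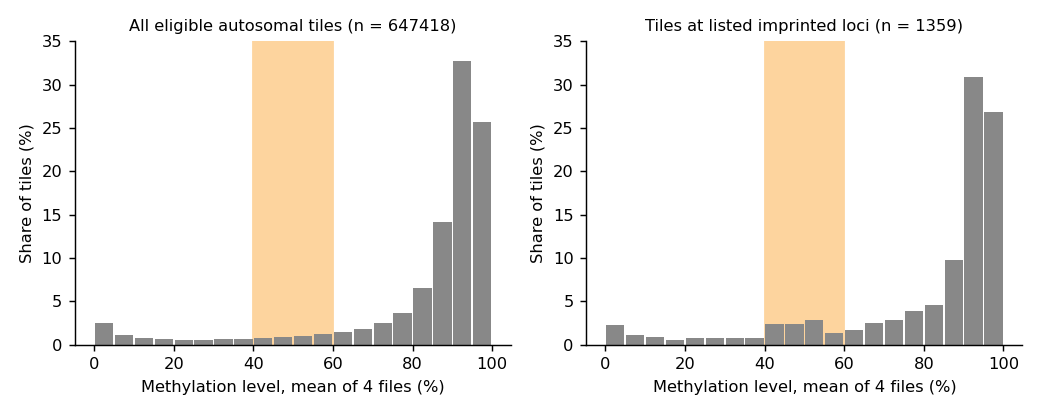
Share of tiles (vertical axis, %) in each 5-point class of methylation level, taken as the mean of the 4 files (horizontal axis, %), for all 647418 eligible autosomal tiles (left) and for the 1359 within 20 kb of a listed imprinted gene (right). The shaded band marks 40 to 60%, where few tiles of either set lie compared with the classes above 80%.

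Sequences of several half-methylated tiles are shown first, because they differ in how the CpGs behave. All are the plus strand of GRCm38 in the reference, with every CpG in capitals and all other bases in lower case. The first 4 lie in imprinted loci and were taken from the tile with the most CpGs there, at chr15:72810011-72810160 (Peg13, a non-coding RNA made from the paternal copy), chr11:22972387-22972536 (Zrsr1, a splicing factor gene), chr7:6730258-6730407 (Peg3, a zinc finger gene) and chr2:174299735-174299884 (an exon of Gnas, the gene of a G protein subunit, close to its antisense transcript Nespas).
Peg13: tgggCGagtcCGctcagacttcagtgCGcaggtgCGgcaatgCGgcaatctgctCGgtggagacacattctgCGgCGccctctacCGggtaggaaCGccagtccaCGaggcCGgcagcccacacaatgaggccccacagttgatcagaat
Zrsr1: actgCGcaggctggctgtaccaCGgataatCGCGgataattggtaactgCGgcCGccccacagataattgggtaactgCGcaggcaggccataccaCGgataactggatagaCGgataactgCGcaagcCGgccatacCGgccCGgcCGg
Peg3: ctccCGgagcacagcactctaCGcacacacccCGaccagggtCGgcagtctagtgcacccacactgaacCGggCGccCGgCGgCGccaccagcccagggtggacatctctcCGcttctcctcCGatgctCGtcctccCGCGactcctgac
Gnas: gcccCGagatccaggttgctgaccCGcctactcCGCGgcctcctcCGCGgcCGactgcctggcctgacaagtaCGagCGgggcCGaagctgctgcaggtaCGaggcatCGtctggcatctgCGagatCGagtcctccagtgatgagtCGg

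Every CpG in these stretches was itself near the middle. With the reads of the 4 files pooled, the 12 CpGs of the Peg13 stretch had levels of 39.4 to 53.5%, the 14 of Zrsr1 39.6 to 46.6%, the 14 of Peg3 33.8 to 47.8% and the 15 of Gnas 36.5 to 55.9%. Each of these values rests on 54 to 102 reads.

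A tile with the same overall level can look quite different. The next stretch, at chr11:100702450-100702749 beside the start of Dhx58, which encodes a sensor of viral RNA, has the largest change between the mean levels of its left and right CpGs among tiles with few intermediate CpGs at protein-coding starts with at least 4 measured CpGs close by on either side and under 20% of masked sequence.
Dhx58: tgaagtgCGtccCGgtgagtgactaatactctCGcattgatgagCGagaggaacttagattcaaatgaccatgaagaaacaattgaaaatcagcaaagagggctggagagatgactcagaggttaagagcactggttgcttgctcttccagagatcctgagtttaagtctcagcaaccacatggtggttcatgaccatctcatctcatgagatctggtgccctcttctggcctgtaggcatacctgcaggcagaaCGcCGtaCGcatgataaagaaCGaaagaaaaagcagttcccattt

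The 4 CpGs on the left had pooled levels of 71.7 to 91.1%, and the 4 on the right, which begin 211 bases further on, had 0 to 0.943%. The whole Dhx58 tile nevertheless had levels of 51.5 and 51.2% in B cells of females and males, and of 52.7 and 48.8% in their T cells. Its overall value describes none of its CpGs.

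**Figure D2:**
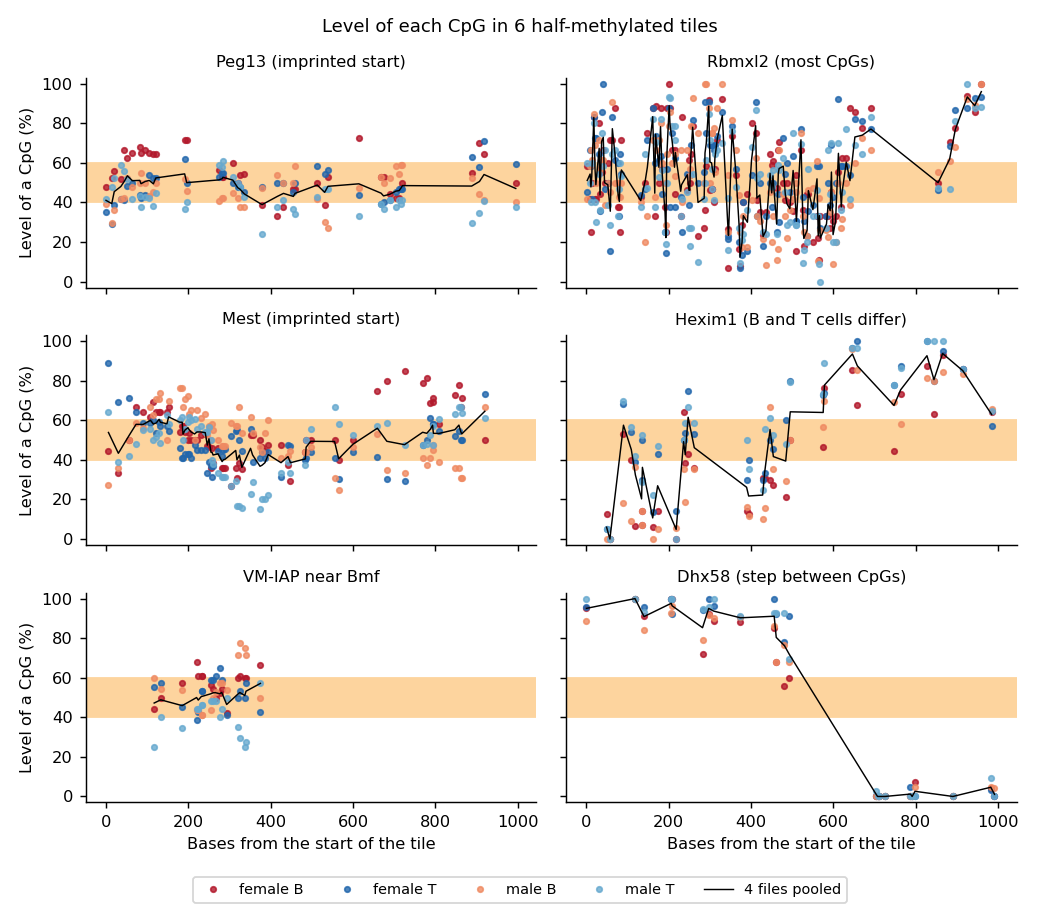
Level of each CpG (vertical axis, %) against its distance from the start of the tile (horizontal axis, bases) in 6 half-methylated tiles, with a point for each file and a line for the 4 files pooled. The pooled lines of Peg13, Mest and the variably methylated element near Bmf stay close to the shaded 40 to 60% band, that of Rbmxl2 scatters around it, that of the tile near Hexim1 rises from low to high, and that of Dhx58 falls from above 70% to near 0%.

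Tiles were therefore sorted by their CpGs. A tile was called uniform if at least 90% of its CpGs had a pooled level of 20 to 80%, and mixed if fewer than 50% did. Mixed tiles were the most frequent form, with 4494 of 8207 (54.8%), and 3374 lay between the definitions. The remaining 339 (4.13%) were uniform, a share that depends on the definition, since it was 10.9% if 80% of CpGs sufficed, 1.68% with a middle range of 25 to 75% and 13.7% (1572 of 11502) in tiles of 500 bp. In the median half-methylated tile 45% of CpGs were in the middle range, 25.8% were below 20% and 29.4% were above 80%. A tile mean near 50% thus came with intermediate CpGs throughout in a minority of these tiles under each of these definitions. A single CpG at 50% with the reads available would be expected to scatter by about 6 points from counting alone (median 6.06 points over the tiles), and the observed SD over the CpGs of a tile had a median of 34.1 points.

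The pattern of low and high CpGs recurred between files. Across the CpGs of a tile, the correlation between levels in female B cells and in male T cells had a median of 0.916 over the 8207 tiles, each over 10 to 114 CpGs that share a tile but no sample. In the uniform tiles the median was 0.644, and in the uniform tiles at imprinted loci 0.319. The SD over the CpGs of the latter had a median of 9.59 points, and its part in the lower correlation was not tested. These correlations describe the tiles and carry no test.

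**Figure D3:**
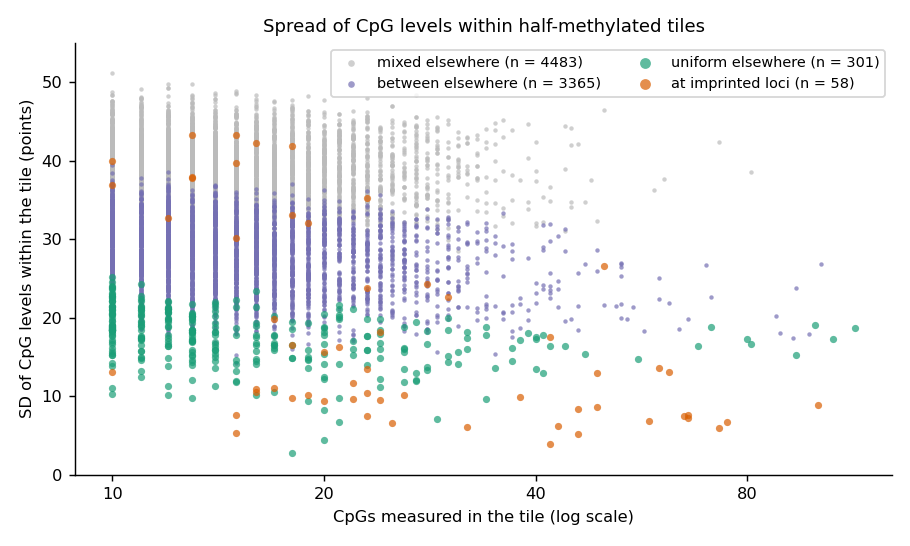
SD of pooled CpG levels within each half-methylated tile (vertical axis, percentage points) against the number of CpGs measured in it (horizontal axis, log scale), with 1 point per tile. Tiles at imprinted loci (orange) make up most of the points with many CpGs and an SD under 10 points.

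A half-methylated tile had a median of 259 reads per file, which gives its level a median counting error of 3.11 points, and the median range over the 4 files was 8.23 points. Just inside the limits were a tile in an intron of Tns1 with levels of 58.4, 60, 59.1 and 58.8% (B cells then T cells of females, B cells then T cells of males, the order used for 4 values throughout), a tile in an intron of Mgat5 with 41.9, 58.7, 46.6 and 40%, and an intergenic tile at chr1:52597001-52598000 with 60, 52.2, 59.4 and 58.9%. Just outside were a tile over the start of Nectin4 with 41.8, 52.9, 40.3 and 60.03%, one in an exon of Hcn4 with 60.03, 47.4, 45.6 and 45.7%, and one in an intron of Nuak1 with 48.6, 56.5, 39.96 and 46.96%.

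Whether a half-methylated state found in some files also appeared in others could be asked directly. Of the 17667 tiles at 40 to 60% in both B cell files, 8207 (46.5%, exact 95% interval 45.7 to 47.2%) were in that range in both T cell files, against 2.81% of all eligible tiles. The mean T cell level over the 17667 tiles had a median of 53.3% and quartiles of 45.7 and 61.7%, and it was above 60% in 28.7% of them and below 40% in 12.9%. Between the sexes the share was larger, since 65.8% of the 12478 tiles chosen in the 2 female files (64.9 to 66.6%) were also at 40 to 60% in both male files, against 1.94% of all. When 3 files chose, the file left out lay in the range in 80.96 to 83.2% of the tiles. The T cell share stood below the male share in this set of files, and the difference between these shares was not tested.

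The 8207 tiles were spread over all autosomes, from 1.01% of the eligible tiles of chromosome 3 to 1.52% of those of chromosome 11. They lay more often near annotated starts and less often in gene bodies than the eligible tiles as a whole. A transcript start was within 1 kb of 22.9% of them (14.1% of all eligible tiles), 11.6% lay in exons (16.5%), 28.5% in introns (34.7%) and 36.9% between genes (34.7%). The median tile held 15 CpGs and 48.3% G and C, against 13 CpGs and 46.5% over all eligible tiles.

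Most stood alone. When neighbouring tiles were joined, with 1 missing tile allowed, they formed 7894 runs, of which 7600 held a single tile. The longest run, of 6 tiles over 7 kb, lay in an intron of Etv6, a transcription factor of the ETS family used in blood cells. Its 113 CpGs gave tile means of 47.0 to 51.7%, and none of the 6 tiles was uniform. Runs of 4 lay on both sides of a gap upstream of Zdbf2. There were 11 runs of 3, among them those over Mest and over the shared start of Peg3 and Usp29. Others had their nearest listed start at Gm8579 (103519 bases or more away), Ccdc186, Crym and Abca14, Gm31374 and Gm16576. None was within 20 kb of an imprinted gene of the list used below. Of these, the Gm8579 run had 2 uniform tiles, the Gm31374 run had 1 and the others had 0. The 2 uniform Gm8579 tiles had 45.8 and 44.9 reads per CpG, against a median of 17.7 over half-methylated tiles. Of their sampled 31-base words 45 and 20% were found again in the genome, and the part of copies in their levels was not tested. In the 4 runs at Zdbf2, Mest and Peg3 every tile was uniform. Part of the first Zdbf2 run lay beyond the 20 kb limit used below and is counted there among the tiles elsewhere.

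Imprinted loci were marked by a list of 42 genes. Tiles within 20 kb of a listed gene made up 0.210% of the eligible tiles, 0.707% of the half-methylated tiles and 38 of the 339 uniform ones. Of the 1359 eligible tiles at these loci, 58 were half-methylated, and of the 42 genes 28 had at least 1 such tile and 18 at least 1 uniform tile. All 18 belonged to the 28 genes listed for a cluster with a germline methylated region, that is, a region whose methylation is set in the egg or the sperm. The listing is by cluster, so a uniform tile need not be that region, and those at Igf2 and Dlk1 lay over 20 kb from H19 and Meg3, where the regions of their clusters are. The same list holds 4 genes whose half-methylated tiles were not uniform, Nnat, Cdh15, Airn and Igf2r. These counts are of genes, and neighbouring genes such as Peg10 and Sgce, Gnas and Nespas, or Airn and Igf2r share tiles. At 6 genes not listed in this way, Cdkn1c, Mkrn3, Peg12, Ascl2, Ddc and Gab1, half-methylated tiles were present and none was uniform.

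**Figure D4:**
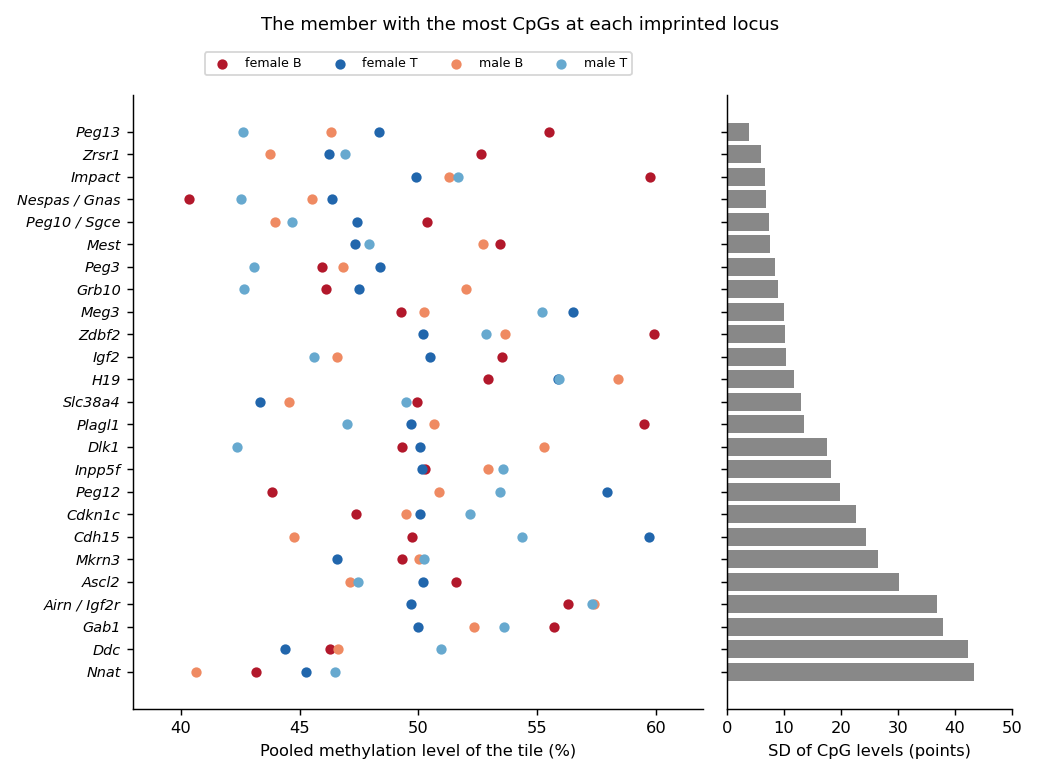
Left, pooled level (horizontal axis, %) in each of the 4 files of the half-methylated tile with the most CpGs at each imprinted locus that has one. Right, SD over the CpGs of the same tile (percentage points), with loci ordered by it, from 3.87 points at Peg13 to 43.2 points at Nnat.

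Among genes whose maternal copy is methylated, the tile over the start of Peg13 had the smallest CpG spread among the 58 half-methylated tiles at listed loci, an SD of 3.87 points over 42 CpGs. Its levels were 55.5% in B cells and 48.4% in T cells of females, and 46.3% in B cells and 42.6% in T cells of males. Counting alone would give an SD of 5.39 points there if every CpG had reads of its own. Close CpGs can lie on the same reads, and the part of this in the smaller SD was not tested. Zrsr1 also had a small CpG spread, with 73 CpGs at 36.8 to 60% in a tile at 52.6, 46.2, 43.8 and 46.9%. The Peg10 and Sgce start, which both genes share in opposite directions, had 50.4, 47.4, 43.97 and 44.7% over 65 CpGs. Peg10 is a gene derived from a retrotransposon that the placenta needs, and Sgce encodes a sarcoglycan.

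Mest, which encodes a membrane protein of the hydrolase family, had 3 uniform tiles in a row, the central one with 53.4, 47.3, 52.7 and 47.9% over 66 CpGs. The Peg3 tile had 45.9, 48.4, 46.8 and 43.1%. In the Gnas locus 6 tiles were half-methylated and all 6 were uniform, among them the exon tile with 40.3, 46.4, 45.5 and 42.5% over 75 CpGs. The start of Grb10, an adaptor that restrains growth factor signalling, held the imprinted tile with the most CpGs, 101, with 46.1, 47.5, 52.0 and 42.7%. In the central Mest tile both B cell values were above both T cell values, and in the Peg3, Gnas and Grb10 tiles the values of the cell types overlapped.

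Among the paternally methylated loci, Zdbf2 had the most uniform tiles. At Zdbf2, 8 half-methylated tiles lay within 20 kb of the gene, 7 upstream and 1 in an exon, and all were uniform, and the 1 Mb around them (chr1:63000001-64000000) held 11 of the 339 uniform tiles, the most of any such interval. The exon tile had 23 of its 97 CpGs measured and lay between tiles at 93.2 and 92.3%. The tile with the most measured CpGs had 59.9, 50.2, 53.7 and 52.8% over 26 CpGs. A further tile just beyond the 20 kb limit, at chr1:63252001-63253000, had an SD of only 4.46 points over 20 CpGs. At H19, the non-coding RNA whose control region also governs the growth factor gene Igf2, the tile upstream of the gene had 52.9, 55.9, 58.4 and 55.9%. The Igf2 tile had 53.5, 50.5, 46.6 and 45.6%. At the Dlk1 and Meg3 cluster, the start of Meg3 had 49.3, 56.5, 50.2 and 55.2%. The Dlk1 tile, at chr12:109459001-109460000, had 49.3, 50.1, 55.3 and 42.4%. At Meg3 both T cell values were above both B cell values, but the difference did not pass the test across tiles (adjusted p = 0.111 in the quasi-binomial model described with the B and T cell comparison).

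Several well-known imprinted starts missed the limits by little in a single file. The Snrpn tile, at the locus affected in Prader-Willi syndrome, had 51.4, 47.5, 61.5 and 44.4%, and only the male B cell file was outside. Kcnq1ot1, a long non-coding RNA that silences its neighbours, had 40.1, 51.4, 39.96 and 46.5%, with an SD over its 38 CpGs of 3.53 points. Gpr1, beside Zdbf2, had 60.1, 53.8, 58.2 and 49.7%. The region upstream of Rasgrf1 had 2 uniform half-methylated tiles, one with 58.7, 49.4, 43.6 and 57.3%, but they lay over 20 kb from the gene and are not counted with it. These 2 tiles share sequence words with each other, and the one printed is multi-copy, with 50% of its sampled 31-base words found again in the genome, so that its own level and a mean over copies cannot be told apart. Counts of imprinted genes with half-methylated tiles therefore leave out tiles just beyond the limits or the 20 kb, and they include genes with no uniform tile.

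Not all half-methylated tiles at imprinted loci were uniform. The Nnat tile, beside the start of Blcap, with 43.2, 45.3, 40.6 and 46.5%, held CpGs from 2.06 to 98.8%, and the tile next to it on its low side was at 0.251%. The Ddc tile, with 46.3, 44.4, 46.6 and 50.97%, held CpGs from 2.82 to 100%. In all, 38 of the 58 tiles at listed loci were uniform (65.5%), against 301 of 8149 elsewhere (3.69%), 11 were mixed and 9 lay between the definitions. Over the 38 uniform tiles at these loci the median CpG SD was 9.59 points, or 1.52 times that given by counting, whereas over the 301 uniform tiles elsewhere it was 17.7 points, or 2.88 times. The counting value treats the reads of each CpG as separate, and the part of reads shared by close CpGs was not tested.

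The zinc finger protein ZFP57 binds methylated TGCCGC and protects imprinted regions from losing methylation in the early embryo. The letters TGCCGC, read on both strands, were present in 18 of the 38 uniform tiles at imprinted loci (47.4%), in 16.3% of the 301 uniform tiles elsewhere, in 14.7% of all half-methylated tiles and in 13.9% of all eligible tiles. Imprinted tiles are rich in CpG, and the hexamer holds a CpG itself. Counted per 100 CpG sites of the reference, there were 2.96 matches in uniform tiles at imprinted loci, 1.09 in uniform tiles elsewhere and 0.957 in all eligible tiles. Examples from the tiles described above are printed on the strand that reads TGCCGC, with every match on either strand in capitals, so that GCGGCA is the match of the other strand. They lie at chr6:30738096-30738125 (Mest, minus strand), chr7:6730050-6730079 (Peg3, minus), chr6:4747217-4747246 (Peg10 and Sgce, plus), chr15:72810032-72810061 (Peg13, minus) and chr7:142581779-142581808 (H19, plus).
Mest: gcgaggtgcggcTGCCGCagaggaaagctg
Peg3: gagcggccgtgtTGCCGCagggatgccatt
Peg10 and Sgce: caaagcagtgcaTGCCGCgcccccacccca
Peg13: agatTGCCGCatTGCCGCacctgcgcactg
H19: acgagacttcacTGCCGCcgtGCGGCAacc

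The Mest tile held 7 matches, the most among the locus tiles, and the Gnas tile 5. Those of Igf2, Zrsr1, Meg3 and Slc38a4 were among those that held none. A match is a description of the letters and not evidence of binding. Searched in the same way, GGNGGCAG, which is part of the motif of the insulator protein CTCF, was present in 34.2% of the uniform tiles at imprinted loci and in 31.7% of eligible tiles, and AAGATGG, the core bound by YY1, in 23.7% and 23.0%. Per 100 CpG sites the first had 1.78 matches in the uniform tiles at imprinted loci against 2.36 in all eligible tiles. The second had 0.789 against 1.60. AAGATGG holds no CpG and GGNGGCAG need not hold one, so these values are lowered in CpG-rich tiles by construction. They do not show that either motif is less frequent there. Where the open letter of the CTCF motif is C, its letters contain the ZFP57 hexamer read on the other strand.

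The remaining 301 uniform tiles lay elsewhere. A larger share was far from genes, with 43.9% between genes and 24.3% more than 50 kb from any annotated start (19.1% of all eligible tiles), and 25 (8.31%) were multi-copy, meaning that at least 50% of the 31-base words sampled from the tile occur again in the genome (6.05% of eligible tiles). Of all 8207 half-methylated tiles 131 (1.60%) were multi-copy, and 2.72% were repeat-masked over at least 50% of their length, against 10.7% of eligible tiles. Repeats were thus less frequent among half-methylated tiles than in the eligible genome. Reads from copies that the aligner cannot tell apart are pooled or dropped, and the part this plays at multi-copy tiles was not tested.

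Some CpG-rich uniform tiles were not multi-copy. One in an intron of Antxr2, which encodes a receptor of the anthrax toxin, had 53.7, 42.4, 56.3 and 40.3% over 56 CpGs. Another beside the start of C530008M17Rik had 48.5, 50.2, 47.4 and 43.8% over 68 CpGs, and a tile in an exon of Rbpjl, a relative of the Notch effector gene Rbpj, 49.1, 47.0, 44.3 and 51.2% over 42. A tile at chr1:180510001-180511000 had 44.02, 53.4, 45.9 and 48.01% with an SD of 8.30 points over 20 CpGs. Its SD was below the median of uniform tiles at imprinted loci, and a stretch of it, chr1:180510409-180510558, is shown with its CpGs in capitals. It was chosen as a tile of unique sequence with a small CpG spread outside the listed loci.
Chromosome 1: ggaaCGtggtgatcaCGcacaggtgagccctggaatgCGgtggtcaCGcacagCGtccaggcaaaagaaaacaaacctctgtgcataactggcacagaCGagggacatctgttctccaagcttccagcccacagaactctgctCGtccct

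The pooled levels of the 7 CpGs in this stretch ran from 34.9 to 60.5%. It held few CpGs compared with the imprinted stretches printed above. The tile does not lie within 20 kb of a listed gene, and whether parental copies differ there was not tested.

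The half-methylated tile with the most CpGs, 114, lay over Rbmxl2, an intronless copy of an RNA-binding protein gene that is expressed in male germ cells. Its levels were 52.5 and 51.5% in B cells of females and males, and 55.8 and 49.9% in their T cells. Neighbouring CpGs differed widely, with an SD of 18.7 points. A stretch of it at chr7:107210158-107210307, dense enough to hold 28 CpGs, shows the arrangement.
Rbmxl2: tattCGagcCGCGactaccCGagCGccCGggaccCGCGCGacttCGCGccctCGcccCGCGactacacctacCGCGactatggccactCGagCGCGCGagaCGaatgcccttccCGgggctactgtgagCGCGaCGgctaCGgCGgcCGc

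Pooled levels of these 28 CpGs ran from 22.2 to 88.9%, each on 38 to 52 reads. The tile was thus uniform by the definition used, yet far from even.

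Families of related tiles accounted for few members. When tiles that share at least 100 words of 31 bases were linked, 80 of the 8207 fell into 24 families. The largest, of 15 tiles, lay between 114509001 and 114625000 on chromosome 6 near Atg7 and Hrh1, where words had a median of 49 copies. Gene models on chromosome 12 between 18853001 and 23800001, named by number only, held 5 of the 12 uniform tiles outside imprinted loci with the most CpGs, such as Gm21863 with 52.2, 52.5, 50.6 and 49.5% over 106 CpGs and an exon of Gm47437 with 47.9, 41.0, 42.5 and 41.0% over 94. In the multi-copy tiles of this interval the level of 1 copy and a mean over copies cannot be told apart.

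The deepest tile, intergenic at chr10:3112001-3113000, had 230.3 reads per CpG against a median of 17.7, and levels of 58.4, 56.4, 58.2 and 57.4%. It was masked over its whole length. In all, 17 half-methylated tiles (0.207%) had over 40 reads per CpG, against 0.0653% of all eligible tiles.

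Intracisternal A particles are retrotransposons of the mouse, nearly all of which are heavily methylated. The study listed elements whose methylation varies between mice (VM-IAPs). That list was drawn up with B and T cell libraries of the study, so an overlap with it is not independent of these data. Of 99 listed autosomal elements 92 had an eligible tile, and 7 had a half-methylated one, of which 5 were uniform. The tile over the element near Bmf, a gene of a cell death protein, had the smallest CpG spread of all 8207, with an SD of 2.71 points over 18 CpGs that all lay between 45.9 and 57.1%. Its levels were 57.1, 53.0, 52.8 and 42.1%. The tile was masked over 98.4% of its length, its words had a median of 181 copies, and 18 of its 40 CpGs were measured. The element near Rsg1 had 49.0, 52.0, 47.0 and 43.9% with an SD of 7.13 points over 29 CpGs. That near Gm20110 had 51.2, 56.9, 46.4 and 57.9%, higher in T cells in both sexes (adjusted p = 0.0139). These 3 elements share sequence words with each other and all 3 tiles were multi-copy, with 95, 60 and 50% of words repeated, so that the level of 1 element and a mean over copies cannot be told apart. Each file holds cells of several animals, and a mixture of animals with different levels cannot be told apart here from an intermediate level in each. With 1 file per group, a difference between cell types and one between pools of mice cannot be told apart at such elements either.

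**Figure D5:**
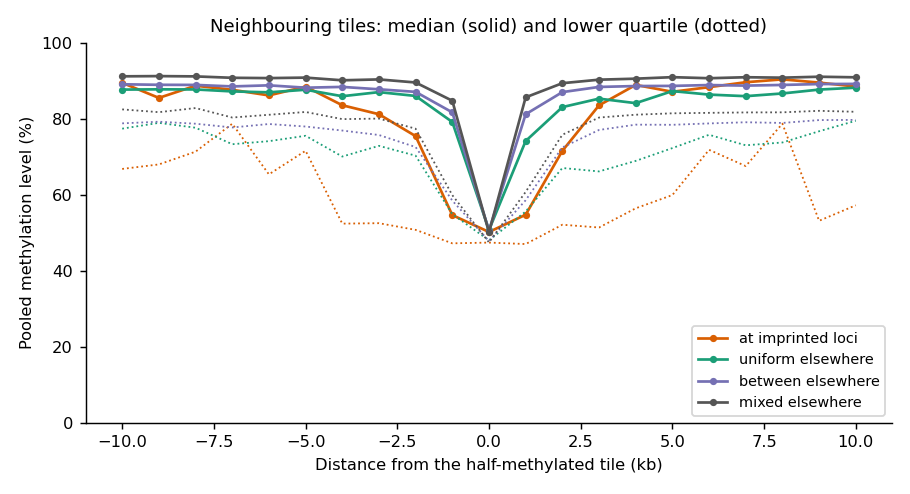
Pooled level (vertical axis, %) of tiles up to 10 kb on either side of a half-methylated tile (horizontal axis, kb), as the median (solid) and lower quartile (dotted) over tiles of each kind. At imprinted loci the neighbours at 1 kb are near 55% and the level returns above 80% at 3 kb, while around mixed tiles it is already near 85% at 1 kb.

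The surroundings of the tiles were highly methylated. At a distance of 10 kb the median neighbour had a level of 87.7 to 91.1% on the left for all 4 kinds of tile. Imprinted tiles stood in wider intermediate stretches, with medians of 54.6 and 54.7% in the tiles directly to the left and right, against 79.1 and 74.1% beside uniform tiles elsewhere. A neighbour was not used to choose the tile it adjoins, but 379 of the 8207 half-methylated tiles adjoin another one, and these were kept among the neighbours. At Zdbf2, Mest and Peg3 such tiles lay side by side, so the medians beside imprinted tiles in part restate the choice.

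In mixed tiles the neighbours tended to follow the order of the CpGs inside. Each tile was split where the mean levels of its left and right CpGs differ most, with at least 3 CpGs on either side. By the way the classes are defined this difference is larger in mixed tiles, with a median of 66.7 points, than in uniform tiles elsewhere, with 21.3 points. The tile adjoining the low side of a mixed tile was lower than the one adjoining its high side in 3315 of 4306 cases (77.0%), with medians of 70.0 and 90.9%, and it was below 20% in only 22.6%. For uniform tiles elsewhere the adjoining tiles were ordered this way in 161 of 279 (57.7%). Where a protein-coding start lay outside the tile and within 5 kb, the low side faced it in 971 of 1362 mixed tiles (71.3%) and in 37 of 68 uniform ones (54.4%). Low CpGs thus lay more often towards a start in mixed tiles, and these shares are descriptions without a test.

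The sharpest examples had hardly an intermediate CpG. In a tile beside the start of Mrpl45, which encodes a protein of the mitochondrial ribosome, the split was 93.8 points, the adjoining tile on its low side was at 3.51% and that on its high side at 97.1%. Its levels were 50.3, 56.1, 53.7 and 57.96%. A tile in an intron of Tpd52 had 44.2, 41.5, 43.8 and 43.1%, with a split of 95.8 points over 13 CpGs, but the tile adjoining its low side was at 65.6%. The other 3 of the 5 tiles with the largest CpG spread, near Timm10, 4932438A13Rik and Usb1, had low-side neighbours at 82.0, 56.3 and 37.1%, so that in 4 of the 5 the low stretch did not continue as an unmethylated tile.

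Half-methylated tiles made up 1878 of the 91223 eligible tiles within 1 kb of any annotated start (2.06%), and counts by gene family are read against that share. The clustered protocadherin genes give neurons their surface identity, each from a start that is chosen at random and methylated in part. Of 120 eligible tiles within 1 kb of a start of Pcdha, Pcdhb or Pcdhg genes, 28 were half-methylated (23.3%), such as Pcdha5 with 44.6, 45.9, 44.2 and 45.5% over 39 CpGs, and 2 were uniform. Other families lay nearer to the share over all starts or had few tiles. Half-methylated tiles were found at 22 of 1223 eligible tiles near starts of Zfp and Zscan genes, 7 of 168 of Hox genes, 3 of 443 of olfactory receptors, 1 of 91 of histone genes, 1 of 33 of immunoglobulin and T cell receptor V segments, 0 of 30 of vomeronasal receptors and 0 of 42 of listed germ cell genes. The families share no test, and the members of a cluster share sequence and place.

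B cells and T cells were compared by a quasi-binomial logistic model of methylated and unmethylated reads, with cell type and sex as terms, fitted to all eligible tiles with Benjamini-Hochberg adjustment. It called 403 of the 8207 half-methylated tiles (4.91%) at an adjusted p under 0.05, where 10.3% of all eligible tiles were called. The rule confines every half-methylated tile to a 20-point band, so that large differences could not occur among them and nothing is read from the lower share. Of the 403, 158 were higher in B cells and 245 in T cells, where 33456 of all 66406 called tiles were higher in B cells. The 403 had differences of 4.97 to 17.2 points and a median of 11. With limma on log2 ratios of methylated to unmethylated reads in place of this model, 0 of the 8207 were called for cell type and 0 for sex (52 and 3 at an unadjusted p under 0.05), so every call and adjusted p given here rests on the quasi-binomial model.

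The largest was in an intron of Tnpo1, a nuclear import receptor, with 58.6 and 58.5% in B cells of females and males and 40.2 and 42.5% in their T cells (adjusted p = 0.000143). A tile over an exon of Acbd4, close to the transcription regulator gene Hexim1, was higher in T cells, with 42.2 and 42.6% in B cells and 58.01 and 59.97% in T cells (adjusted p = 6e-10). Both sexes gave the same direction in these tiles, and the B and T cell values did not overlap. Both tiles were picked for a large called difference in the same files, so this adds no support. A tile between genes 28 kb from the start of Il1a, an inflammatory cytokine gene, had 41.0, 55.6, 40.4 and 58.7%, again higher in T cells (adjusted p = 0.000972). The uniform tile in an intron of Antxr2, given above, was higher in B cells, with 53.7 and 56.3% against 42.4 and 40.3% (adjusted p = 4.25e-09). In the long Etv6 run, 2 of 6 tiles were called, both higher in T cells, with 46.1, 56.5, 42.8 and 54.3% in the tile with 27 CpGs (adjusted p = 0.00297).

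At imprinted loci 8 of 58 tiles (13.8%, exact 95% interval 6.15 to 25.4%) were called between B cells and T cells. Of the 8149 half-methylated tiles elsewhere, which are held to the same 20-point band, 395 were called (4.85%). Of all eligible tiles, which are not held to it, 10.3% were called. The interval treats tiles as independent, but tiles of the same locus, as at Zdbf2 and Mest, can lie side by side. All tiles were also read from the same files, so the interval is no test of a difference between these shares. Tiles at imprinted loci also held more reads per file, with a median of 388 against 259 in those elsewhere, and the part of depth in their share of calls was not tested. Of the 8, 6 were higher in B cells. The Peg10 tile next to the shared start had 55.9 and 56.0% in B cells and 46.3 and 45.7% in T cells (adjusted p = 3.94e-07), and the Usp29 start 56.7 and 56.8% in B cells and 45.7 and 47.0% in T cells (adjusted p = 0.00377). The 2 cell types did not overlap in either tile, but both tiles were picked as called and the rule holds them close to the middle, so this adds no support. The Plagl1 start had 59.5, 49.7, 50.6 and 47.0% (adjusted p = 0.00205), with the female B cell file apart from the other 3. Grb10 was called in the opposite direction in the tile beside its start, with 49.95, 53.1, 49.1 and 57.6% (adjusted p = 0.0165), while its start tile was not called (adjusted p = 0.0951).

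Females and males differed in few tiles. The same model called 10 of the 8207 half-methylated tiles for sex (0.122%), where 0.0731% of eligible tiles were called. Of all 473 tiles called, 342 were higher in females, and so were 8 of the 10 half-methylated ones. The largest difference was in an intron of Cmip, a signalling adaptor, with 55.1 and 59.2% in females and 40.2 and 43.7% in males (adjusted p = 0.031). Beside the start of Ppp1cc, a phosphatase subunit, males were higher, with 59.2 and 59.8% against 48.9 and 40.9% (adjusted p = 0.0211). The only uniform tile among the 10 lay in an exon of the gene model Gm9825, with 56.8 and 57.1% in females and 49.5 and 40.2% in males (adjusted p = 0.00264). Each sex was represented by 1 file per cell type, so a difference between pools of mice and a difference between sexes cannot be told apart. An interaction term between cell type and sex was added to this model. It called 5 of the 8207 half-methylated tiles (0.0609%, exact 95% interval 0.0198 to 0.142%) at an adjusted p under 0.05. Of all eligible tiles, 0.0383% were called. The interval treats tiles as independent, but all were read from the same files. The rule also limits how far the files of a half-methylated tile can differ. The interval is therefore no test of a difference between these shares, and nothing is read from them. With 1 file per group the interaction term leaves no residual spread, so its calls rest on the dispersion shared by all tiles.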

How the data were processed

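The 4 groups comprise whole-genome bisulfite libraries of 8 samples and were analysed through 4 deposited files, 1 per group. Whether these files hold the reads of all 8 samples is not stated. In each, the authors deposited 1 line per CpG, with the methylated fraction and, as a count, the reads behind it; strands were merged and no CpG had fewer than 5 reads. Per the submitters' processing notes the tools were Trim Galore, FastQC and Bismark 0.13.1, with reads placed on mm10. Part of each library was oxidized, and the files used are the plain bisulfite ones. How the aligner treated repeats, duplicate removal and the conversion rate are not given in the sources used here.

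Methylated reads were recovered as fraction times coverage, which was within 0.00101 of a whole number over the coverage in 100% of entries. Tiles of 1 kb started at the first base, and their level is methylated over all reads of the 18216084 autosomal CpGs present in all 4 files. Intervals and counting errors cover counting only. Genes came from GENCODE M21 and sequence from GRCm38. A tile was placed at a start if a transcript start lay within 1 kb, otherwise in an exon, an intron or between genes. Multi-copy tiles were found from 31-base words sampled every 50 bases. Positions of VM-IAPs were taken from the study, with no values.

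The quasi-binomial fit had 1 residual degree of freedom. Its dispersion was moderated across tiles with limma 3.58.1 in R 4.3.3, and its prior degrees of freedom were infinite, so all tiles shared a dispersion of 1.441 and very small p-values may overstate certainty for a single tile.

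Tiles named in the text are, for each imprinted gene, the one with the most CpGs, and the extremes of run length, CpG spread, CpG number, depth and called differences; those for the Dhx58 step, protocadherins and uniform tiles outside imprinted loci were chosen after their values were seen. The members and lists were chosen with earlier results of these data known. Python 3.11.15 and scipy 1.17.1 were used, and X was kept apart. A listed marker promoter and a named tile are not reported here.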

Additional observations from a re-analysis of the deposited data

Results flagged for a closer look

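In 5 half-methylated tiles the difference between the B and T cell files of females differed from that between the files of males, by the interaction term of the quasi-binomial model with adjustment over all eligible tiles. The term called 0.0609% of the half-methylated tiles and 0.0383% of all eligible tiles. The rule limits how far the files of a half-methylated tile can differ, so nothing is read from these shares. The smallest adjusted p was in a tile beside the start of Gm45371, with B cells 8.94 points above T cells in females and 12.3 points below in males (adjusted p = 1.16e-05). A tile in an intron of Tshz2, whose nearest listed start is that of A630075F10Rik, had 59.6% in B cells and 44.4% in T cells of females, and 41.4 and 51.7% in those of males (adjusted p = 0.00539). A tile over an exon of Amigo2, near Pced1b, had 51.5, 43.0, 42.9 and 52.3% in the same order (adjusted p = 0.00487), and one over an exon of Cdhr5, near the interferon regulator gene Irf7, had 40.8, 50.2, 54.1 and 44.6% (adjusted p = 0.0316). The tile near Gm12996, the uniform one of the 5, had 56.1, 40.4, 45.4 and 52.0% (adjusted p = 0.0481). With 1 file per group this term has no residual spread of its own and its p-values rest on the dispersion shared by all tiles, so a difference between pools of mice and one between the sexes cannot be told apart.

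On X, which the rule leaves out, 302 of 8659 tiles (3.49%) were at 40 to 60% in both female files and 109 (1.26%) in both male files. Of the 302, 115 had a mean level under 20% in males, against 0 of the 12478 autosomal tiles chosen in the same way. Females carry 2 copies of X, of which 1 is inactivated.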

How the results depend on the processing

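The count of half-methylated tiles was 18233 with limits of 35 and 65%, 1261 with 45 and 55%, 12408 with 5 CpGs per tile and 4133 with 15. At imprinted loci it was 110 with the wider limits and 9 with the narrower. Uniform tiles numbered 648 and 59 with these limits, 530 with 5 and 168 with 15 CpGs, 1572 in tiles of 500 bp, 138 with CpGs at 25 to 75% and 897 if 80% of CpGs sufficed. The share of B cell choices that held in T cells was 59.8% with the wider limits, 21.4% with the narrower, 43.3% with 5 CpGs, 50.2% with 15, 48.0% with 10 reads per CpG, 38.9% in tiles of 500 bp, 47.5% with tiles from position 500 and 54.2% with a mean over CpGs. B and T cell calls among all tiles numbered 36060 by limma on log2 ratios, 43051 with 10 reads per CpG and 101905 with 5 CpGs, and sex calls 229 at differences of 10 points or more, 0 by limma and 278 with 10 reads. Limma called 0 half-methylated tiles for cell type or sex (52 and 3 at an unadjusted p under 0.05, against 1227 and 524 in the quasi-binomial model). In all, 27 alternatives moved a value beyond its limit and 31 did not; wider limits and other CpG minimums change how many tiles can qualify by construction, and the cause of the others was not tested. Leaving out a file gave 9864 to 10137 half-methylated tiles, 67 to 73 at imprinted loci and 396 to 414 uniform ones. No paired analysis was possible because the groups share no replicate number and each has 1 file. Depth limits single CpGs, whose levels carry a counting error of about 6 points with the files pooled.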
